A study of Aspergillus niger with 16 samples.

Results

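The genes *rgxB* (NRRL3_08631), *rglA* (NRRL3_00684) and *xghA* (NRRL3_07469) of the filamentous fungus Aspergillus niger encode enzymes that cut the substituted parts of the pectin backbone. They were picked by their NRRL3 locus tags and are 3 of the 11580 genes listed in any of 16 RNA-seq libraries; all 3 passed the filter on low counts that left 10003 genes for testing. The names were paired with the tags from published knowledge that was recalled and not looked up, and the deposited tables carry no names.

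Pectin is a chain of D-galacturonic acid (GA) units with different decorated stretches. In rhamnogalacturonan I the backbone alternates GA with rhamnose, and in xylogalacturonan the GA units carry xylose. RgxB is a predicted exo-acting hydrolase that removes GA units from the ends of rhamnogalacturonan chains, RglA is a lyase that breaks the rhamnogalacturonan chain internally by β-elimination, and XghA is a hydrolase that cuts inside xylogalacturonan. In this fungus many pectin enzyme genes are switched on by the activator GaaR, which the repressor GaaX holds inactive unless an inducer derived from GA is present.

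The *gaaR* deletion strain CBS 141258 (ΔgaaR, also deltagaaR in the labels) was set against the reference strain CBS 141257 in 4 conditions, and no further allele of either is given. After 16 h of pre-growth with 2% fructose the mycelium was put at 30 °C into minimal medium (pH 6), either with 25 mM GA for 2 h or with 1% sugar beet pectin (SBP) for 2, 8 or 24 h. There were 2 libraries in each of 8 groups, and each genotype was 1 strain. The labels do not say that replicates were separate cultures, so p-values rest on a spread between libraries that may be technical; an exact permutation test of 2 against 2 libraries cannot go below p = 0.333.

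Libraries held 3203011 to 4574019 estimated reads. *gaaR* counted 30 and 1 reads in ΔgaaR with GA, 0 and 12 after 2 h of SBP, 24 and 24 after 8 h and 0 and 0 after 24 h, against 176 to 1984 in the 8 reference libraries. The ΔgaaR replicates at 2 h lay furthest apart, with 9.54% of 8644 genes on GA and 10.81% of 8739 genes on SBP over 2-fold apart among genes averaging at least 10 reads, and reference replicates at 24 h came next with 7.43%; the other groups had 2.29% to 3.95%. All 3 members were low in most libraries, so single reads weigh heavily. Of 48 read counts of the members, all 48 were exactly whole as written.

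**Figure D1:**
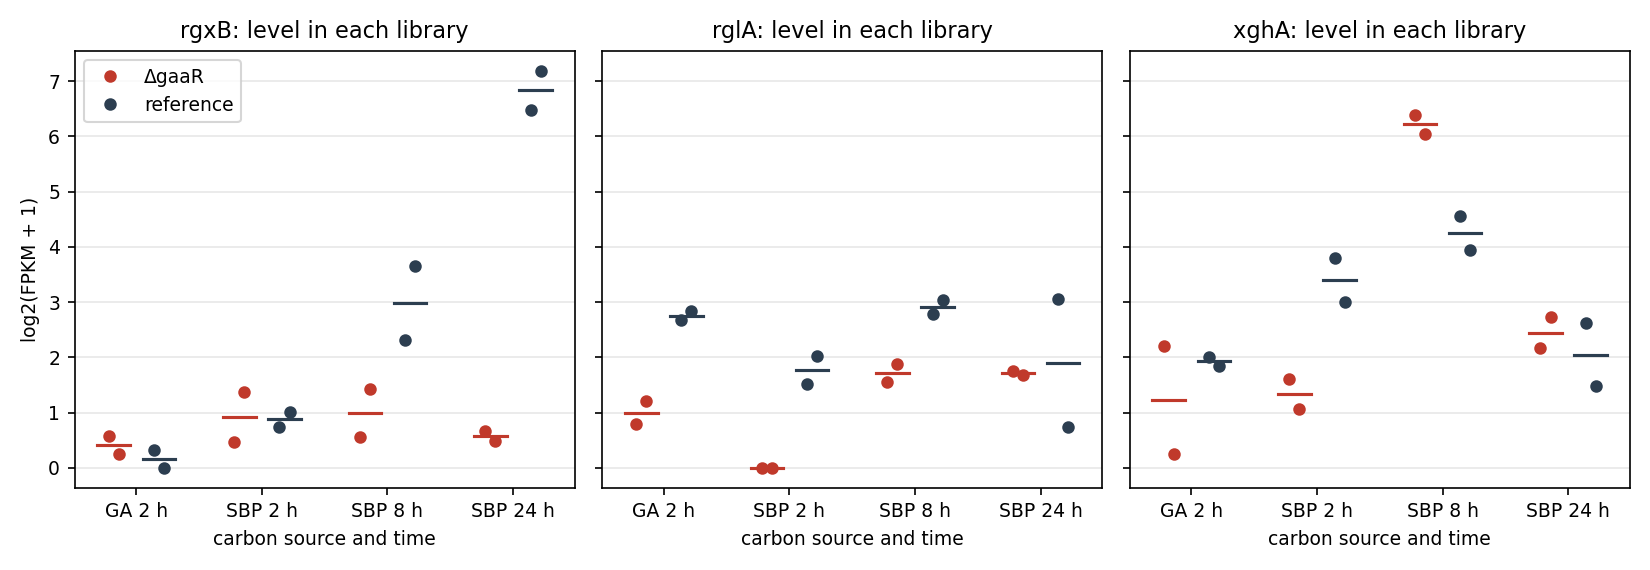
Level of rgxB, rglA and xghA in each of the 16 libraries as log2(FPKM + 1), by carbon source and time, with ΔgaaR left of the reference strain; points are libraries and bars are means of 2. In the panel of rgxB the reference libraries stand highest at SBP 24 h (88.3 and 145 FPKM), in that of xghA the ΔgaaR libraries stand highest at SBP 8 h (82.7 and 65.4 FPKM), and rglA stays under 8 FPKM throughout.

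The 3 genes had 3 different patterns. Levels are given as FPKM, reads scaled by gene length and by library size. Transcripts of *rgxB* were most abundant in the reference strain at 24 h on pectin, where 1268 of its 1372 reads (92.4%) lay. Transcripts of *xghA* were most abundant in ΔgaaR at 8 h on pectin, with 673 of 1076 reads (62.5%), and those of *rglA* were spread over all groups but 1 at low levels, with at most 78 of 303 reads (25.7%) in any group. Summed over the 3 genes, the level was highest in the reference strain at SBP 24 h (124 FPKM, 94% of it *rgxB*) and next in ΔgaaR at SBP 8 h (77.5 FPKM, 95.6% of it *xghA*). *xghA* had the highest mean of the 3 in all 4 ΔgaaR groups and in the reference strain on SBP at 2 and 8 h. *rglA* was highest in the reference strain on GA.

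The exo-acting enzyme gene *rgxB* climbed with time on pectin in the reference strain and stayed near the lower limit of counting in ΔgaaR. The ΔgaaR libraries counted 2 and 1 reads with GA, 2 and 7 after 2 h of SBP, 2 and 8 after 8 h, and 3 and 2 after 24 h. The reference libraries counted 1 and 0 reads with GA, 3 and 5 after 2 h of SBP, 18 and 50 after 8 h, and 471 and 797 after 24 h. The strains overlapped at 2 h on both carbon sources and were apart at 8 and 24 h. At 24 h the level was 0.59 and 0.40 FPKM in ΔgaaR, against 88.3 and 145 FPKM in the reference strain. Ranked by FPKM within the library, *rgxB* stood at place 10165 of 10839 and 10414 of 10857 genes listed in ΔgaaR, and at place 1866 of 10694 and 1168 of 10613 in the reference strain. Here and below RNA came from whole mycelium, in which fewer expressing hyphae and less RNA per hypha cannot be told apart.

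*rgxB* was lower in ΔgaaR at 8 h (log2 fold change -2.77, SE 0.64, adjusted p = 0.0022) and at 24 h (-7.99, SE 0.63, adjusted p = 1.35e-07). In reads summed over libraries, the 24 h difference was 5 against 1268, a level 236-fold higher in the reference strain (95% exact binomial interval 101 to 727, counting error only). At 2 h on SBP the 9 reads in ΔgaaR and 8 in the reference strain gave a log2 fold change of 0.11 (95% interval -1.84 to 2.05, adjusted p = 0.96). Differences inside that interval were not excluded. The sign of the fold change turned with single libraries, at -0.15 without reference replicate 1, -0.99 without ΔgaaR replicate 2 and 0.72 without ΔgaaR replicate 1. On GA no library had more than 2 reads and no fold is given. The deletion effect was larger at 24 h than at 8 h by -5.21 on the log2 scale (SE 1.11, adjusted p = 0.0018). The effect at 8 h differed from that at 2 h by -2.88 (SE 1.16), which did not pass the test (adjusted p = 0.076).

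These *rgxB* values leaned on single libraries at 8 h. The 8 h change was -1.78 without reference replicate 2 (adjusted p = 0.059, the highest of 12 alternatives, which went down to 0.00021), -3.38 without reference replicate 1 and -3.94 without ΔgaaR replicate 2. The 24 h minus 8 h difference was -4.01 without ΔgaaR replicate 2 of 8 h (adjusted p = 0.14, the highest of 16 alternatives, which went down to 6.28e-06), -4.60 without reference replicate 1 of 8 h and -6.20 without reference replicate 2 of 8 h. The 24 h effect itself was called in all 12 alternatives, at -8.29 to -6.26. The 8 h minus 2 h difference was called in 4 of 16 alternatives, without reference replicate 1 of 8 h among them (-3.49, adjusted p = 0.026, with a range over alternatives of 0.026 to 0.49).

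Over time on pectin *rgxB* rose in the reference strain at each step. It was higher at 8 h than at 2 h (3.02, SE 0.66, adjusted p = 0.0019) and higher at 24 h than at 8 h (3.83, SE 0.45, adjusted p = 4.92e-06), and both steps were called in all 12 alternatives. The first step was 2.02 without replicate 2 of 8 h and 3.62 without replicate 1 of 8 h, and the second 4.82 and 3.22 without those libraries. In ΔgaaR neither step passed, with 0.14 (95% interval -1.72 to 2.00, adjusted p = 0.93) at 8 h over 2 h and -1.38 (-3.45 to 0.69, adjusted p = 0.32) at 24 h over 8 h; with 1 library left out they ran from -0.96 to 1.24 and from -1.97 to -0.20. Between SBP and GA at 2 h *rgxB* did not pass in ΔgaaR, with 9 against 3 reads (ratio 2.84, counting interval 0.71 to 16.3, adjusted p = 0.35). Nor did it in the reference strain, with 8 against 1 reads (7.14, counting interval 0.96 to 317, adjusted p = 0.15). In order of level, the reference strain at 24 h stood first with a mean of 117 FPKM and at 8 h second with 7.77 FPKM, and the other 6 groups lay between 0.13 and 1.08 FPKM. The first 2 groups did not overlap with the next in that order, and of the other 5 neighbouring pairs 4 overlapped; the exception was the reference strain on SBP at 2 h above ΔgaaR at 24 h.

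The lyase gene *rglA* was low in every library, and lower in ΔgaaR at 2 h on both carbon sources. The ΔgaaR counts were 4 and 9 reads with GA, 0 and 0 after 2 h of SBP, 11 and 17 after 8 h, and 16 and 15 after 24 h. The reference counts were 28 and 37 reads with GA, 11 and 20 after 2 h of SBP, 36 and 42 after 8 h, and 52 and 5 after 24 h. The strains did not overlap with GA or after 2 and 8 h of SBP. At 24 h both ΔgaaR libraries lay between the 2 reference libraries, which were 10.7-fold apart in FPKM (7.28 and 0.68). At its highest *rglA* stood at place 6999 of 10322 genes listed, in the reference strain on GA.

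On GA the level of *rglA* was 1.03 ± 0.40 FPKM in ΔgaaR and 5.77 ± 0.51 FPKM in the reference strain (SD, n = 2 each), a log2 fold change of -2.53 (SE 0.78, adjusted p = 0.014). After 2 h of SBP *rglA* was at least 5.26-fold lower in ΔgaaR, counted from 3 reads per library, the limit that a count of 0 allows (adjusted p = 0.014). At 8 h the change of -1.49 (SE 0.70) did not pass (unadjusted p = 0.0504, adjusted p = 0.099). Its 95% interval of -2.98 to -0.005 used the median degrees of freedom over all genes, so it can differ slightly from the test. At 24 h it was -0.98 (SE 0.70, 95% interval -2.48 to 0.51, adjusted p = 0.34). None of the differences between successive conditions passed for *rglA*, with adjusted p = 0.14 for SBP 2 h minus GA, 0.069 for 8 h minus 2 h and 0.74 for 24 h minus 8 h.

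The deletion calls on *rglA* leaned on single libraries. On GA it did not pass once reference replicate 2 (-2.40, adjusted p = 0.061) or ΔgaaR replicate 1 (-2.08, adjusted p = 0.092) was left out, while without ΔgaaR replicate 2 the change was -3.18; over 12 alternatives adjusted p ran from 0.0023 to 0.092. After 2 h of SBP it did not pass once reference replicate 2 or ΔgaaR replicate 1 was left out (adjusted p = 0.079 and 0.081, in a range over 12 alternatives of 0.001 to 0.081). At 24 h the sign rested on the reference libraries, with 1.53 without reference replicate 1 (adjusted p = 0.17) and -1.85 without reference replicate 2 (adjusted p = 0.013), in a range over 12 alternatives of 0.013 to 1. The 24 h minus 8 h difference was 3.03 without reference replicate 1 of 24 h (adjusted p = 0.015, in a range of 0.015 to 0.88) and -0.36 without replicate 2. At 8 h the change was called only in a fit of the 4 libraries compared (-1.48, adjusted p = 0.0071, in a range of 0.0071 to 0.30). That kind of fit also called the 8 h minus 2 h difference (adjusted p = 0.015), as DESeq2 did (0.021), among 16 alternatives that reached 0.61.

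Across carbon sources and times the called changes of *rglA* were both in ΔgaaR. No change in the deletion effect between successive conditions passed for it (above). Between SBP and GA the level in ΔgaaR was at least 2.20-fold lower on SBP, from 0 reads on SBP against 13 on GA (adjusted p = 0.041). That call did not hold with the second GA library left out (adjusted p = 0.16), with either SBP library left out (0.12 and 0.13) or with limma on log2(FPKM + 1) (0.17), in a range of 0.0054 to 0.17. In the reference strain the change of -1.27 (SE 0.70) did not pass (adjusted p = 0.14; 0.015 in a fit of the 4 libraries compared, and up to 0.42). In ΔgaaR *rglA* was at least 4.98-fold higher at 8 h than at 2 h on SBP (adjusted p = 0.0085), a call that all 12 alternatives kept, and from 8 to 24 h the change was -0.29 (SE 0.75, adjusted p = 0.81). In the reference strain the step to 8 h was 1.28 (SE 0.69, adjusted p = 0.16; 0.019 in a fit of the 4 libraries compared, and up to 0.44). The step to 24 h was -0.80 (SE 0.65, adjusted p = 0.34), but -3.31 without replicate 1 of 24 h (adjusted p = 0.0015) and 0.07 without replicate 2 (0.92). From 6.60 FPKM in the reference strain at 8 h down to 2.30 FPKM in ΔgaaR at 24 h, each of 6 groups overlapped with the next; only ΔgaaR on GA and ΔgaaR on SBP at 2 h stood below without overlap.

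The xylogalacturonan hydrolase gene *xghA* changed in opposite directions with the deletion at 2 and 8 h on pectin. Reads in ΔgaaR numbered 15 and 1 with GA, 11 and 5 after 2 h of SBP, 357 and 316 after 8 h, and 18 and 29 after 24 h. Reads in the reference strain numbered 12 and 12 with GA, 59 and 35 after 2 h of SBP, 104 and 64 after 8 h, and 28 and 10 after 24 h. The strains did not overlap on SBP at 2 h, where ΔgaaR was the lower, nor at 8 h, where it was the higher; on GA and at 24 h they overlapped. At 8 h *xghA* stood at place 1753 of 10554 and 2173 of 10551 genes listed in ΔgaaR, and at place 4731 of 10354 and 5747 of 10349 in the reference strain.

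On SBP at 2 h *xghA* was lower in ΔgaaR, at 1.57 ± 0.67 FPKM, against 9.995 ± 4.22 FPKM in the reference strain (SD, n = 2 each; log2 fold change -2.61, SE 0.66, adjusted p = 0.015). At 8 h it was higher, at 74.1 ± 12.3 FPKM in ΔgaaR and 18.5 ± 5.66 FPKM in the reference strain (2.01, SE 0.48, adjusted p = 0.003). The ΔgaaR libraries of 8 h had 24 and 24 reads of *gaaR*, against 497 and 514 in the reference libraries; the part of those reads in the result was not tested. The difference between these effects was 4.62 on the log2 scale (SE 0.81, adjusted p = 0.00057) and was called in all 16 alternatives, at 4.04 to 5.30. By 24 h the change was 0.21 (95% interval -1.10 to 1.52, adjusted p = 0.85), and the 24 h minus 8 h difference of -1.80 (SE 0.78) did not pass (adjusted p = 0.089). On GA the change was -0.80 (95% interval -2.45 to 0.85, adjusted p = 0.41), and it did not differ past the threshold from that on SBP at 2 h (-1.81, SE 1.05, adjusted p = 0.19).

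The opposite signs at 2 and 8 h were seen with each library left out, but the 2 h call was not. The call went with reference replicate 1 left out (-2.11, adjusted p = 0.13), with ΔgaaR replicate 2 left out (-2.13, adjusted p = 0.072) and with limma on log2(FPKM + 0.1) (0.074), in a range over 12 alternatives of 0.00041 to 0.13, and it was -3.29 without ΔgaaR replicate 1. The 8 h call was lost with limma on log2(FPKM + 0.1) only (adjusted p = 0.084, the highest of 12 alternatives, which went down to 3.55e-07). The 8 h minus 2 h difference was 5.30 without ΔgaaR replicate 1 of 2 h. On GA the 2 ΔgaaR libraries stood apart, at -3.69 without ΔgaaR replicate 1 (adjusted p = 0.021, in a range of 0.021 to 0.92) and 0.12 without replicate 2. Replicate 1, with 15 *xghA* reads against 1 in replicate 2, also had more reads of *gaaR* (30 and 1). It had more reads, too, of the exopolygalacturonase genes *pgaX* (209 and 9) and *pgxB* (109 and 3). The endopolygalacturonase gene *pgaI* went the other way (20 and 37 reads, 5.33 and 7.79 FPKM). The GA catabolism gene *gaaC* had 354 and 467 reads, but nearly equal levels of 104 and 108 FPKM. The other GA uptake and catabolism genes were higher in replicate 1 in FPKM: *gaaA* (149 and 85.7), *gaaB* (496 and 193), *gaaD* (641 and 373) and *gatA* (18.8 and 7.86). In FPKM, 12 of 18 other pathway genes (counted below) were lower in replicate 2, beside 67.93% of 8644 genes averaging at least 10 reads. The part of these differences between replicates 1 and 2 in the result was not tested. The SBP 2 h minus GA difference was 1.08 and -2.72 without those libraries (adjusted p = 0.63 and 0.025, the ends of the range). At 24 h the sign turned without reference replicate 2 (-0.36) or ΔgaaR replicate 2 (-0.21), and the change was 1.16 without reference replicate 1. The 24 h minus 8 h difference was -0.86 without reference replicate 1 of 24 h. It was called without reference replicate 2 of 24 h (-2.37, adjusted p = 0.031) and in a fit of the 8 libraries compared (0.039), in a range over 16 alternatives that reached 0.55.

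**Figure D2:**
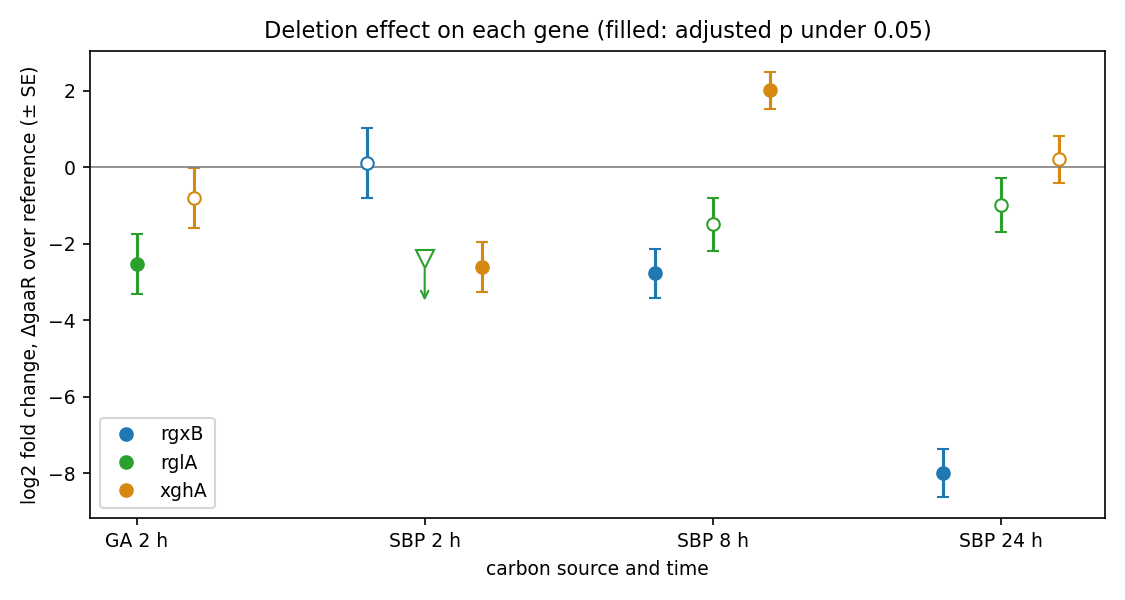
Log2 fold change of ΔgaaR over the reference strain for each gene and condition from edgeR, with bars of 1 SE; filled points passed an adjusted p of 0.05, the open triangle with an arrow is the upper bound for rglA at SBP 2 h (0 reads in ΔgaaR), and rgxB on GA, with at most 2 reads per library, is left out. rgxB reaches -7.99 at 24 h, and xghA is at -2.61 at 2 h and at 2.01 at 8 h.

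In both strains the highest mean of *xghA* was at 8 h, and the step up to it was larger in ΔgaaR. In ΔgaaR *xghA* was 5.38 higher on the log2 scale at 8 h than at 2 h (SE 0.62, adjusted p = 8.92e-06), at 6.06 without replicate 1 of 2 h, and 4.28 lower at 24 h than at 8 h (log2 fold change -4.28, SE 0.55, adjusted p = 2.47e-05). In the reference strain the first step was 0.76 (SE 0.51, 95% interval -0.32 to 1.83; 0.38 to 1.26 with 1 library left out) and did not pass (adjusted p = 0.25), and the second was -2.48 (SE 0.56, adjusted p = 0.002), or -3.43 without replicate 1 of 24 h. All 3 called steps were called in each of 12 alternatives. The first step differed between strains, since that difference is the 8 h minus 2 h interaction given above, while the second did not differ past the threshold. Between SBP and GA at 2 h *xghA* was higher on SBP in the reference strain (1.77, SE 0.62, adjusted p = 0.025), a call that did not hold with either GA library left out (0.091 for replicate 1, 0.12 for replicate 2), with the first SBP library left out (0.19) or with limma on log2(FPKM + 0.1) (0.12), in a range of 0.0054 to 0.19. In ΔgaaR the change was -0.04 (SE 0.83, 95% interval -1.81 to 1.72, adjusted p = 0.98), with 2.85 without GA replicate 1. In order of level, ΔgaaR at 8 h stood above the reference strain at 8 h, that above the reference strain on SBP at 2 h, and that above ΔgaaR at 24 h, each without overlap, while the 5 lowest groups overlapped from one to the next.

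The tag next to that of *xghA*, NRRL3_07470, belongs to *pmeC*, the gene of a pectin methylesterase, an enzyme that strips methyl groups from pectin. At 8 h *pmeC* had 56.5 and 49.4 FPKM in ΔgaaR, against 121 and 141 FPKM in the reference strain (log2 fold change -1.30, SE 0.38, adjusted p = 0.012), the opposite direction to *xghA*. The level of *xghA* was 1.47 and 1.32 times that of *pmeC* in ΔgaaR at 8 h, against 0.19 and 0.10 times in the reference strain. At 24 h the ratio was 2.40 and 2.11 in ΔgaaR, against 0.10 and 0.11 in the reference strain; the ΔgaaR ratios rest on only 6 and 11 *pmeC* reads, against 195 and 191 in ΔgaaR at 8 h. At 2 h it stayed below 1 in every library, at 0.04 (1 *xghA* read) to 0.75 in ΔgaaR over both carbon sources and 0.09 to 0.27 in the reference strain. *pmeC* was lower in ΔgaaR also after 2 h of GA (-2.78, SE 0.49, adjusted p = 0.00018) or of SBP (-3.14, SE 0.48, adjusted p = 0.00037) and at 24 h (-4.18, SE 0.54, adjusted p = 2.04e-05). Over time on SBP *pmeC* moved the same way as *xghA*. In ΔgaaR it rose from 2 to 8 h (3.38, SE 0.48, adjusted p = 6.07e-05) and fell from 8 to 24 h (-4.93, SE 0.53, adjusted p = 4.5e-06). In the reference strain these steps were 1.54 (SE 0.39, adjusted p = 0.0048) and -2.05 (SE 0.39, adjusted p = 0.00051). Its deletion effect at 8 h differed from that at 2 h by 1.84 (SE 0.61, adjusted p = 0.034), the same sign as for *xghA*.

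**Figure D3:**
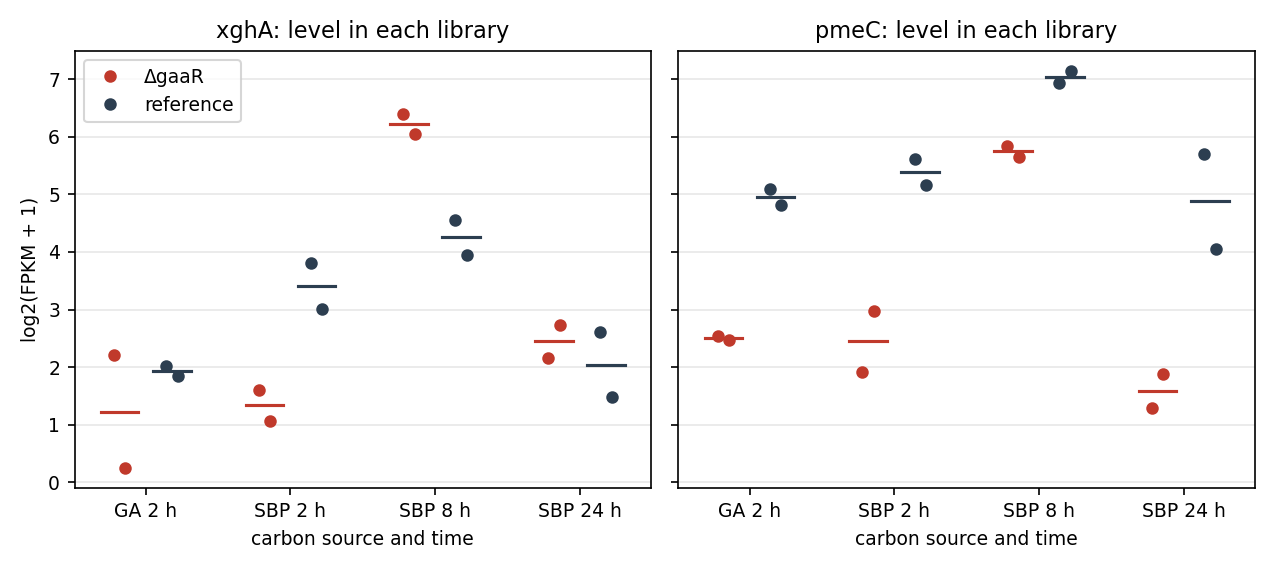
Level of xghA and of pmeC, the gene with the next tag, in each library as log2(FPKM + 1), with ΔgaaR left of the reference strain; points are libraries and bars are means of 2. At SBP 8 h the ΔgaaR libraries lie above the reference libraries for xghA (82.7 and 65.4 against 22.5 and 14.5 FPKM) and below them for pmeC (56.5 and 49.4 against 121 and 141 FPKM).

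Counted over the 3 genes and 4 conditions, 6 of 12 deletion comparisons were called, 5 of them lower and 1 higher, and *rgxB* on GA had too few reads to be called. On GA 1 of 3 was called, lower (background 49.7% of 10003 genes), and on SBP at 2 h 2 of 3, both lower (14.6%). At 8 h 2 of 3 were called, 1 lower and 1 higher (43.8%), and at 24 h 1 of 3, lower (28.5%). The median log2 fold change of the 3 genes was -0.80 on GA, -2.61 on SBP at 2 h (-2.40 with *rglA* at its bound), -1.49 at 8 h and -0.98 at 24 h, beside medians over all genes of 0.09, 0.07, -0.01 and -0.02. Of the differences between conditions, 0 of 3 were called for SBP 2 h minus GA in edgeR's test (0 at an unadjusted p under 0.05 and 0 with DESeq2; background 37.3%), 1 of 3 for 8 h minus 2 h (28%) and 1 of 3 for 24 h minus 8 h (33.9%). Between SBP and GA at 2 h, 1 of 3 was called in ΔgaaR (31%) and 1 of 3 in the reference strain (52.6%). From 2 to 8 h, 2 of 3 were called in ΔgaaR (30.3%) and 1 of 3 in the reference strain (40.5%), and from 8 to 24 h 1 of 3 in ΔgaaR (29%) and 2 of 3 in the reference strain (44.9%). With 3 genes, none of these shares is set apart from its background.

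Other genes of GA use and pectin breakdown with a recalled tag went mostly one way with the deletion. Of 18 such genes (5 for GA uptake and catabolism, 9 for homogalacturonan and 4 for side chains), 16 were lower and 1 higher on GA, 15 lower and 0 higher on SBP at 2 h, 16 lower and 1 higher at 8 h, and 13 lower and 0 higher at 24 h. Over all genes tested, 23.5% were lower and 26.2% higher on GA, 7.21% lower and 7.35% higher on SBP at 2 h, 21.4% lower and 22.4% higher at 8 h, and 15.8% lower and 12.6% higher at 24 h. The gene that was higher on GA and at 8 h was *abnC*, which encodes an endoarabinanase that cuts arabinan side chains (named after its values were seen). The medians of the log2 fold change over the 18 genes were -3.64, -3.48, -4.97 and -2.58 in that order of conditions. The list of these genes was chosen from recalled tags with earlier results of these data known, so the counts are not independent evidence of direction.

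The 3 genes were little alike in pattern. Across the 8 group means on the scale of log2(FPKM + 1), Pearson's r was 0.35 between *rglA* and *rgxB*, 0.35 between *rglA* and *xghA* and 0.01 between *rgxB* and *xghA*. Among the other 20 named genes, those most like *rgxB* were the endopolygalacturonase genes *pgaC* (r = 0.65) and *pgaE* (0.56) and the β-galactosidase gene *lacC* (0.50). Those most like *rglA* were the endopolygalacturonase gene *pgaI* (0.79), the exopolygalacturonase gene *pgxB* (0.77) and *pgaC* (0.76), and those most like *xghA* were *pmeC* (0.65), *pgaE* (0.55) and *pgaC* (0.46). These are descriptions over 8 points that share strains and libraries: of 10002 other genes tested, 532 were at least as like *rgxB* as *pgaC* was, 140 at least as like *rglA* as *pgaI* was, and 256 at least as like *xghA* as *pmeC* was. Unlike *rgxB*, *pgaC* and *pgaE* had their highest mean in the reference strain at 8 h (58.4 ± 12.1 and 178 ± 12.6 FPKM) and not at 24 h (17.7 ± 17.0 and 28.6 ± 10.04 FPKM; SD, n = 2 each).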

How the data were processed

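RNA-seq was analysed in 16 libraries, 8 groups of 2 taken from the sample titles. Per the file headers, each table gives an RSEM expected count, an FPKM value and a gene length per gene. As deposited, the expected count is not normalized, and 548 of 168277 listed values (0.326%) were not whole (any remainder in the value as written). FPKM, as deposited, is scaled by gene length and library size. Lengths were multiples of 3 for 100% of genes, hence coding lengths, 1194 bases for *rgxB*, 1587 for *rglA* and 1221 for *xghA*. RSEM, Bowtie2 and BWA are named in the submitters' processing notes; versions, build and strand handling are not given in the sources used here. Unlisted genes were taken as 0 reads.

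Rounded expected counts went into edgeR 4.0.16 under R 4.3.3 (TMM, filterByExpr defaults, quasi-likelihood F test, two-sided, 1 mean per group, all 16 libraries, 8 residual degrees of freedom), with Benjamini-Hochberg adjustment over all 10003 genes and a threshold of 0.05. An SE is the log2 fold change divided by the root of F, and 95% intervals use it with the median degrees of freedom over all genes. Alternatives were RLE and total count scaling, no filter, only the libraries compared, DESeq2 1.42.0, limma 3.58.1 on log2(FPKM + 1) and log2(FPKM + 0.1), a replicate block and each library left out. The procedure was run on simulated counts for the deletion on GA only. Every simulated gene had the same spread beyond counting error, a dispersion of 0.041. The members had 0.098 (*rgxB*), 0.2 (*rglA*) and 0.111 (*xghA*), so the simulation was no test of calls on them. Tables and plots used pandas 2.3.3, matplotlib 3.10.9, scipy 1.17.1 and numpy 2.4.6 under Python 3.11.15.

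Named genes were the 3 members, *gaaR*, *pmeC* and the 3 of 20 other named genes most like each member over the 8 group means. *abnC*, and *gaaC*, *pgaI*, *pgaX* and *pgxB* on GA, were added after their values were seen. Members and lists were chosen with earlier results of these data known. Recalled tags of another strain for *rgxB*, *rglA*, *xghA* and *pmeC* were found in the RefSeq table (assembly ASM285v2), with genomic spans at least as long as the coding lengths. The recalled tags of *xghA* and *pmeC* were consecutive by number. No sequences were compared, so this match does not check the names.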

Additional observations from a re-analysis of the deposited data

Results flagged for a closer look

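The deletion effect on *xghA* differed between SBP at 8 h and at 2 h by 4.62 on the log2 scale (edgeR interaction contrast, adjusted p = 0.00057), with both ΔgaaR libraries above both reference libraries at 8 h and below both at 2 h. The deletion effect on *rgxB* differed between 24 h and 8 h by -5.21 (adjusted p = 0.0018), lower in ΔgaaR at both times and by more at 24 h; the call was lost without ΔgaaR replicate 2 of 8 h (-4.01, adjusted p = 0.14, in a range over 16 alternatives of 6.28e-06 to 0.14). No value was tested as an outlier, since groups of 2 libraries are too small for that.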

How the results depend on the processing

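For the 39 comparisons of the 3 genes, 443 of 495 alternative values kept direction and side of the threshold, 18 lost the call, 17 gained one and 17 changed sign; the cause was not tested. Of 16 comparisons called, 8 were called in every alternative run. RLE scaling, total count scaling and no filter changed nothing, though total count scaling moved the median of all genes by up to 0.28. With limma on log2(FPKM + 0.1) adjusted p was 0.0739 and 0.0845 for *xghA* with the deletion on SBP at 2 and 8 h, 0.12 for its SBP over GA in the reference strain, 0.0337 for *rgxB* there, and 0.978 with a turned sign (-0.06) for *rgxB* with the deletion on SBP at 2 h; signs also turned for *xghA*, SBP over GA in ΔgaaR (0.646; 0.914 with log2(FPKM + 1)) and *rglA*, 24 over 8 h in ΔgaaR (1). With log2(FPKM + 1) *rglA*, SBP over GA in ΔgaaR, had 0.17. Fits of only the libraries compared gave *rglA* 0.00707 (deletion at 8 h), 0.0146 (deletion effect, 8 h minus 2 h), 0.015 (SBP over GA, reference strain) and 0.0189 (8 over 2 h, reference strain), and *xghA* 0.0388 (deletion effect, 24 h minus 8 h), and called 736 genes on SBP at 2 h; 7 of these fits gave no value for *rgxB*, and 1 of those 7 (SBP over GA in ΔgaaR) gave none for *rglA* and *xghA* either. DESeq2 gave 0.0214 for *rglA* and 0.0359 for *rgxB* on the 8 h minus 2 h effect, where limma on log2(FPKM + 1) gave *rgxB* 0.0288.

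Leaving out each library in turn gave these ranges of adjusted p. With the deletion they were 0.0298 to 0.0923 (*rglA*) and 0.0211 to 0.918 (*xghA*) on GA, 0.652 to 0.966 (*rgxB*), 0.0328 to 0.081 (*rglA*) and 0.0269 to 0.13 (*xghA*) on SBP at 2 h, 0.000533 to 0.0589 (*rgxB*) at 8 h, and 0.0126 to 0.557 (*rglA*) and 0.37 to 0.889 (*xghA*) at 24 h. For the deletion effect between conditions they were 0.0254 to 0.633 (*xghA*, SBP 2 h minus GA), 0.0264 to 0.489 (*rgxB*, 8 h minus 2 h), and 0.000423 to 0.139 (*rgxB*), 0.0147 to 0.876 (*rglA*) and 0.031 to 0.554 (*xghA*) for 24 h minus 8 h. SBP over GA had 0.0422 to 0.157 (*rglA*) and 0.127 to 0.794 (*xghA*) in ΔgaaR and 0.0217 to 0.192 (*xghA*) in the reference strain. For *rgxB* 8 over 2 h in ΔgaaR had 0.504 to 0.778, and for *rglA* 24 over 8 h in the reference strain 0.00152 to 0.923. The count of genes called lay between 572 and 1803 on SBP at 2 h (592 and 572 without reference replicates 1 and 2, 634 without ΔgaaR replicate 1, 1456 with all libraries) and between 1722 (without ΔgaaR replicate 1) and 2405 at 24 h (2847 with all). A group left with 1 library was assumed to vary like the others.

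The replicate numbers did not pair the libraries: the correlation of replicate differences was over 0.1 in 4 of 28 pairs of groups (-0.355 to 0.263). A replicate block called the 8 h minus 2 h effect on *rgxB* (adjusted p = 0.0294) and changed no other call. At 3203011 to 4574019 reads per library, genes with under 10 reads could show only large differences.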
